A study of Ovis aries with 16 samples.

Results

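TIMP1, TIMP3 and CCN2 are secreted regulators of the extracellular matrix, followed here in the left ventricle of fetal sheep after losartan or angiotensin II in utero. They were chosen by name, as all non-control probes annotated to these 3 genes, which are 3 of the 863 genes that could be named on the array and 5 of its 15008 probes. TIMP1 is written TIMP-1 in the files and has 2 probes, TIMP3 has 1 probe, and CCN2 has 2 probes under a locus name described as connective tissue growth factor, its older name. All 5 probes passed the detection filter described below. The genes came onto the list through their ranks in these same arrays, TIMP1 and CCN2 with losartan and TIMP3 and CCN2 with angiotensin II, so those contrasts are given as a description with no test.

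Tissue inhibitors of metalloproteinases (TIMPs) bind the active site of matrix metalloproteinases and slow the breakdown of collagen and other matrix proteins. TIMP1 is a soluble inhibitor that also acts on cells through CD63, while TIMP3 is held in the matrix and also inhibits ADAM17, the enzyme that sheds tumour necrosis factor. CCN2 is a matricellular protein of the CCN family that binds integrins and growth factors. In heart and other tissues its transcript is known as a target of transforming growth factor beta, of angiotensin II signalling and of the mechanically controlled cofactor YAP with its TEAD partners.

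Losartan fetuses (twin sets 1 to 4, n = 4) received intravenous losartan, which blocks the type 1 angiotensin II receptor, for 5 days, and the other fetus of each pair was the untreated twin (n = 4). Angiotensin II fetuses (twin sets 5 to 8, n = 4) received intravenous angiotensin II, the peptide that activates this receptor, for 5 days, again with an untreated twin each (n = 4). Surgery took place on day 125 or 126 of gestation, with term at 145 days. The labels call the infusions both daily and continuous, and they call the tissue both free wall and free wall with septum. Each fetus gave 1 array of total RNA. Whether the untreated twins carried catheters is not stated in the labels, and dose and fetal sex are not given there.

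The probes are shown first because they fix what each value can mean. The last 30 bases of the TIMP1 and CCN2 probes and the whole TIMP3 probe, each 60 bases long in the files, read as follows, with the polyadenylation signal AATAAA in capitals.
TIMP1, brighter probe: ccacctttcttcaagaggatgaAATAAAga
TIMP1, second probe: cccacctttcttcaagaggatgaAATAAAg
TIMP3: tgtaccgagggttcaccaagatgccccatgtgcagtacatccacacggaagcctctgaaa
CCN2, brighter probe: aagctaatttgcctgtaacaagccagattt
CCN2, second probe: gacttgaccataggtctgtattagtgcaca

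The TIMP1 probes share a run of 59 bases and are offset by 1, so they read the same stretch of transcript and are not independent measurements. The CCN2 probes share no run longer than 6 bases and read different stretches. AATAAA, searched on the printed strand, occurs in 845 of the 15008 probes (5.63%), among them both TIMP1 probes and neither the TIMP3 nor the CCN2 probes. The files give no genome position for these probes.

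A level here is the log2 signal of a probe minus the 75th percentile of its array, and a twin ratio is the level of the treated fetus minus that of its untreated twin. Tests ran on the 8970 probes that the scanner software scored as well above background on all 4 arrays of some group, and a probe was called where limma's Benjamini-Hochberg adjusted p was under 0.05. The 75th percentile was 1099 to 1670 fluorescence units and 57.3% to 64.1% of probes were well above background on an array. On the first principal component (32.1% of the variance) 3 arrays stood apart, the untreated twin of set 2 and the angiotensin II fetuses of sets 7 and 8, with scores of 30.1 to 39.8 against -19.0 to -0.44 on the other 13. These 3 arrays lie on slide 2 and are also the ones with the brightest control corner spots (log2 17.24 to 17.73, against 14.40 to 15.36). Of 21 cardiomyocyte markers listed, 2 had a named probe, MB and TPM1, and both were tested and well above background on all 16 arrays. The other listed markers had no named probe, so their detection is not known. TPM1 is also on the list of serum response genes used below. In bulk tissue, fewer cells of a type and less RNA per cell cannot be told apart.

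CCN2 was lower than in the untreated twin in every losartan fetus and higher in every angiotensin II fetus. With losartan its mean twin ratio was -0.90 ± 0.52 (SD, n = 4 sets), a level 0.536 times that of the untreated twins, and with angiotensin II it was 0.59 ± 0.38 (SD, n = 4 sets), 1.51 times. TIMP1 was also lower in 4 of 4 losartan sets and higher in 4 of 4 angiotensin II sets, by -0.45 ± 0.12 and 0.19 ± 0.07 (SD, n = 4 sets each). Among all tested probes 11.1% were lower in 4 of 4 losartan sets and 7.68% higher in 4 of 4 angiotensin II sets. TIMP3 was higher in 4 of 4 angiotensin II sets by 0.92 ± 0.65 and had no common direction with losartan.

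CCN2 levels with losartan were -0.33, -0.45, -0.43 and -0.40 in sets 1 to 4, against 0.03, 0.97, 0.83 and 0.15 in the untreated twins. The losartan fetuses lay within 0.12 of one another (mean -0.40 ± 0.05, SD, n = 4), while their untreated twins spread over 0.94 (mean 0.50 ± 0.47, SD, n = 4), and the groups did not overlap. Groups that do not overlap, with losartan lower, were seen for 4.09% of all tested probes. The twin ratios were -0.36, -1.42, -1.26 and -0.55. Their size followed where the untreated twin stood, the losartan levels of the brighter probe being nearly equal. The losartan levels did lie inside the range of the untreated twins of the other arm, which was -0.78 to 0.41.

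CCN2 levels with angiotensin II were 0.85, 0.70, 0.58 and -0.36 in sets 5 to 8, against 0.10, -0.33, 0.41 and -0.78 in the untreated twins. Of the 4 treated fetuses, 3 lay above every untreated twin of their arm and the fetus of set 8 lay below 3 of the 4, its own twin being the lowest of the 16 arrays. The twin ratios were 0.76, 1.02, 0.17 and 0.41. No angiotensin II fetus exceeded the highest untreated twin of the losartan arm.

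The second CCN2 probe gave ratios of -0.23, -1.37, -1.27 and -0.69 with losartan and 0.68, 1.10, 0.02 and 0.21 with angiotensin II. It gave the same sign in all 8 sets and differed from the brighter probe by at most 0.20 in any set, although the probes read different stretches. In set 7 its ratio of 0.02 was close to no difference. Its losartan levels were less tight than on the brighter probe, from -1.93 to -1.57 (SD 0.17, n = 4). Their untreated twins ran from -1.33 to -0.39 (SD 0.46, n = 4).

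TIMP1 levels with losartan were 3.56, 3.45, 3.63 and 3.28 in sets 1 to 4, against 4.17, 3.92, 4.01 and 3.62 in the untreated twins. All 4 ratios were negative (-0.62, -0.47, -0.38 and -0.35), but the groups overlapped narrowly, the losartan fetus of set 3 standing level with the untreated twin of set 4. TIMP1 was bright, with processed signals of 12758 to 26775 fluorescence units over the 16 arrays.

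TIMP1 levels with angiotensin II were 4.03, 3.71, 4.02 and 3.71 in sets 5 to 8, against 3.89, 3.59, 3.75 and 3.49 in the untreated twins. The ratios, 0.14, 0.13, 0.28 and 0.22, were small and alike, while the groups themselves overlapped. This contrast did not place TIMP1 on the list, and it did not pass the test (estimate 0.19, SE 0.09, limma adjusted p = 0.482). The second TIMP1 probe gave -0.69, -0.56, -0.33 and -0.14 with losartan and 0.23, 0.12, 0.29 and 0.20 with angiotensin II.

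**Figure D1:**
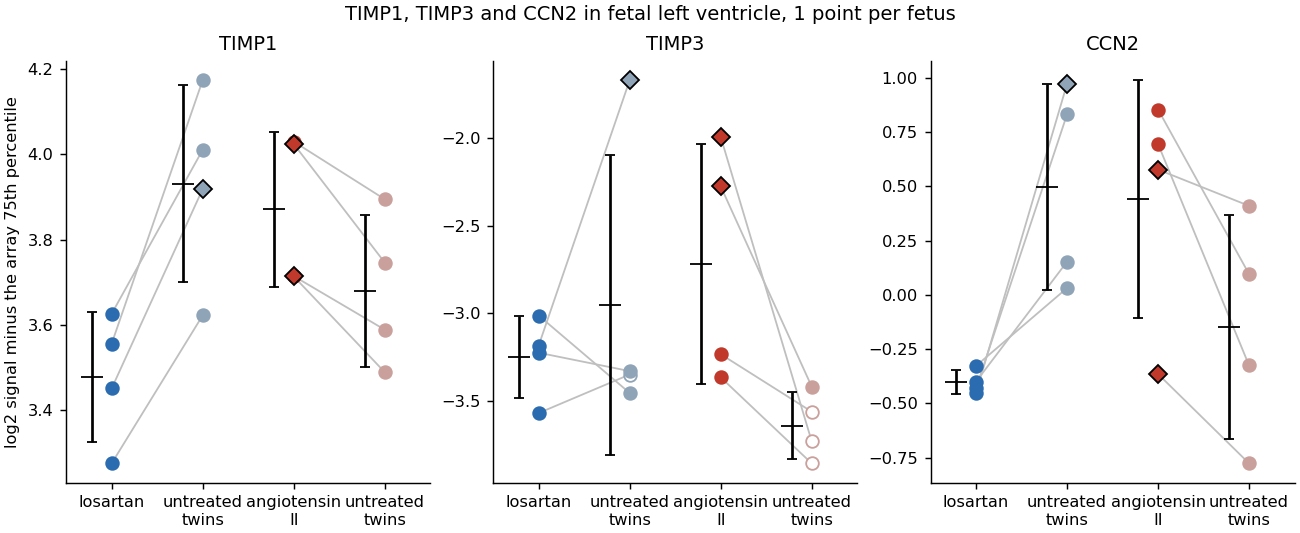
Level (log2 signal minus the 75th percentile of the array) of TIMP1, TIMP3 and CCN2 by group, 1 point per fetus, with lines joining twins and bars for the mean and SD of 4 fetuses. Diamonds mark the 3 arrays that stood apart and open points are not well above background. CCN2 in losartan fetuses lies between -0.45 and -0.33 on the brighter probe, and the 3 highest TIMP3 points are the 3 diamonds.

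TIMP3 levels with losartan were -3.57, -3.18, -3.22 and -3.01 in sets 1 to 4, against -3.35, -1.67, -3.33 and -3.45 in the untreated twins. The ratios of -0.22, -1.51, 0.10 and 0.44 had no common sign, and the contrast, which did not place TIMP3 on the list, did not pass the test (estimate -0.30, SE 0.31, limma adjusted p = 0.737). Without set 2 the mean ratio was 0.11, so the negative estimate rested on that set, whose untreated twin is one of the 3 arrays that stood apart.

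TIMP3 levels with angiotensin II were -3.23, -3.36, -2.28 and -1.99 in sets 5 to 8, against -3.56, -3.86, -3.42 and -3.73 in the untreated twins. All 4 angiotensin II fetuses lay above all 4 of their untreated twins, as 1.65% of tested probes did. The ratios were 0.33, 0.49, 1.14 and 1.73, and the 2 largest belong to the sets whose treated arrays stood apart, so the mean was 0.41 without sets 7 and 8. The signal was dim (94.0 to 459 fluorescence units) and well above background on 12 of 16 arrays, 4 of 4 with angiotensin II and 1 of 4 in the untreated twins.

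The 3 highest TIMP3 levels of the 16 arrays were those of the 3 arrays that stood apart, which averaged -1.98 ± 0.30 (SD, n = 3), against -3.41 ± 0.23 in the other 13 (SD, n = 13). The same 3 arrays held the 3 highest levels for 1015 of the 8970 tested probes (11.3%) and the 3 lowest for 9.91%. For TIMP1 these arrays averaged 3.89 ± 0.16 (SD, n = 3) against 3.71 ± 0.26 (SD, n = 13), and for CCN2 0.40 ± 0.69 against 0.03 ± 0.54, so that in both genes the means differed by less than the SD of the other 13. What sets these arrays apart was not tested.

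**Figure D2:**
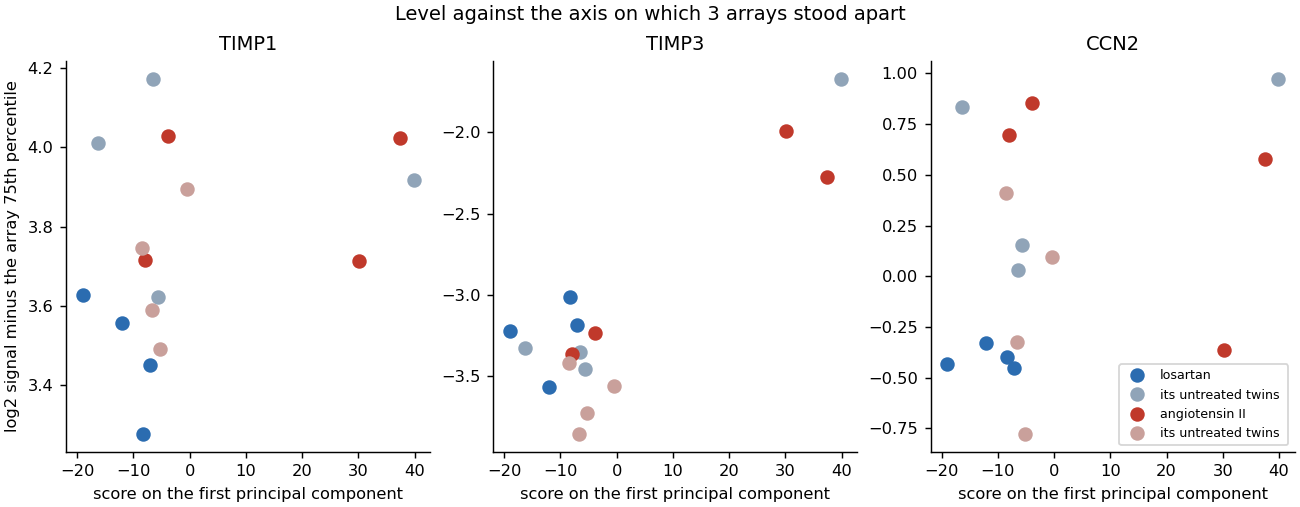
Level of each gene (log2 signal minus the 75th percentile of the array) against the score of the array on the first principal component, 1 point per fetus, coloured by group. The 3 arrays with scores above 30 hold the 3 highest TIMP3 levels, while TIMP1 and CCN2 in them lie within the range of the other 13, apart from CCN2 in the untreated twin of set 2, the highest of all at 0.97.

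Twins shared a slide in sets 2, 3, 6 and 8, where slide cannot enter the ratio. In sets 3 and 6 they also shared the array row on the slide, but in sets 2 and 8 they did not. The 3 arrays that stood apart all lay in row 2 of slide 2, as did the losartan fetus of set 4. In sets 2, 3, 6 and 8 the CCN2 ratios were -1.42 and -1.26 with losartan and 1.02 and 0.41 with angiotensin II. The TIMP1 ratios were -0.47 and -0.38 with losartan and 0.13 and 0.22 with angiotensin II. The TIMP3 ratios were -1.51 and 0.10 with losartan and 0.49 and 1.73 with angiotensin II. With slide as a further block the losartan estimates were -0.95 for CCN2, -0.47 for TIMP1 and -0.57 for TIMP3. Those for angiotensin II stayed at 0.59, 0.19 and 0.92, which the layout fixes for every probe. The treated fetus lay on slide 1 in set 5 and on slide 2 in set 7, with the untreated twins the other way round. The slide term therefore cancels in the angiotensin II estimate, and this fit is no check on it. Within slide 1 and slide 2 taken alone, with no twin block, the angiotensin II estimates were 0.73 and 0.45 for CCN2, 0.20 and 0.18 for TIMP1, and 0.34 and 1.51 for TIMP3. The losartan estimates within slide 1 and slide 2 were -0.77 and -1.37 for CCN2, -0.31 and -0.49 for TIMP1, and 0.15 and -1.58 for TIMP3. They rest on 1 losartan fetus against 3 untreated twins on slide 1 and on 3 losartan fetuses against 1 untreated twin, that of set 2, on slide 2.

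**Figure D3:**
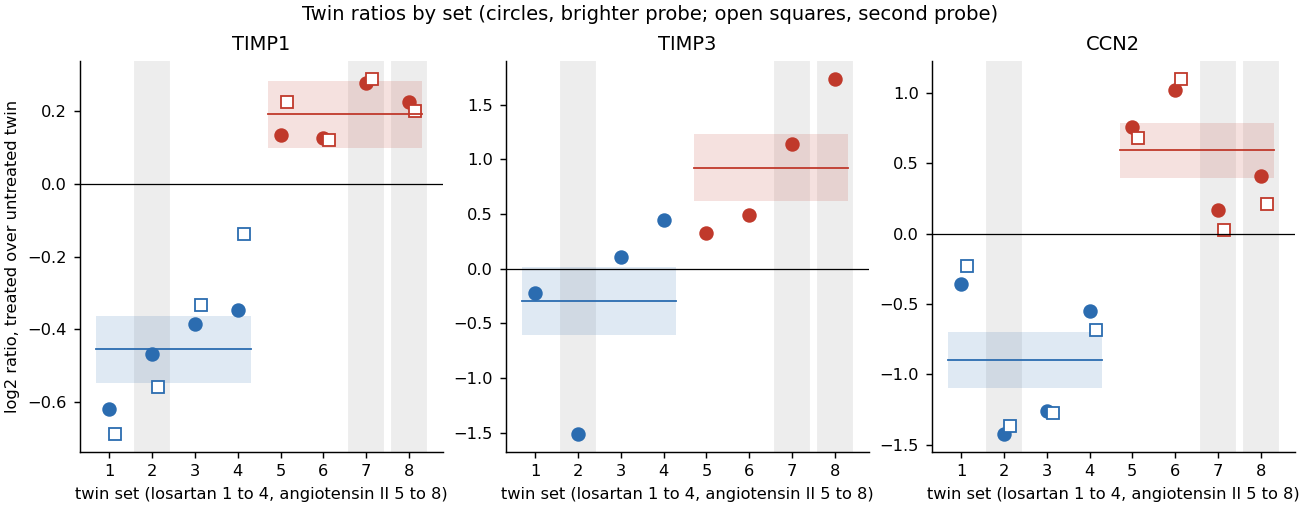
Log2 ratio of the treated fetus to its untreated twin by twin set, with circles for the brighter probe and open squares for the second probe. Horizontal lines with bands are the fitted estimates with their standard errors, and grey columns are the sets that hold the 3 arrays that stood apart. TIMP1 and CCN2 lie below 0 in sets 1 to 4 and above 0 in sets 5 to 8, while TIMP3 with losartan runs between -1.51 and 0.44.

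Without sets 2, 7 and 8, the mean ratios with losartan were -0.73 for CCN2, -0.45 for TIMP1 and 0.11 for TIMP3 (n = 3 sets). Those with angiotensin II were 0.89, 0.13 and 0.41 (n = 2 sets). CCN2 with losartan thus kept its sign and most of its size, and its ratio with angiotensin II was larger without these sets. The angiotensin II effect minus the losartan effect was 1.49 for CCN2 (SE 0.28), 0.65 for TIMP1 (SE 0.13) and 1.22 for TIMP3 (SE 0.44). TIMP1 and CCN2 had ratios below 0 in all 4 losartan sets together with ratios above 0 in all 4 angiotensin II sets. This pattern occurred in 3.08% of tested probes, and it includes the ratios that placed these genes on the list.

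By mean level TIMP1 and CCN2 had the same order of the 4 groups and TIMP3 another. CCN2 ran from losartan (-0.40) through the untreated twins of angiotensin II (-0.15) and angiotensin II (0.44) to the untreated twins of losartan (0.50), and each of these neighbours differed by less than the larger of their SDs except the untreated twins of angiotensin II and the angiotensin II fetuses (SDs 0.52 and 0.55). TIMP1 ran from losartan (3.48 ± 0.15) through the untreated twins of angiotensin II (3.68 ± 0.18) and angiotensin II (3.87 ± 0.18) to the untreated twins of losartan (3.93 ± 0.23), and its highest neighbours differed by less than their SDs. TIMP3 was lowest in the untreated twins of angiotensin II (-3.64 ± 0.19), then losartan (-3.25 ± 0.23), the untreated twins of losartan (-2.95 ± 0.85) and angiotensin II (-2.72 ± 0.68), and the 3 highest means lay within the larger SDs of their neighbours.

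The untreated twins received neither agent, and those of the losartan and angiotensin II arms came from different mothers. The arms also differ in slide, with 3 untreated twins of the losartan arm on slide 1 and 1 on slide 2. In the angiotensin II arm there were 2 on each. Mother and slide cannot be told apart in this comparison. All 3 genes were lower in the untreated twins of the angiotensin II arm than in those of the losartan arm, by -0.65 for CCN2, -0.25 for TIMP1 and -0.69 for TIMP3. The same untreated levels are one side of the contrasts that placed the genes on the list, so these differences and their common direction are a description with no test. Without the untreated twin of set 2 they were -0.49 for CCN2, -0.26 for TIMP1 and -0.26 for TIMP3. In this comparison limma called 0 of 8970 probes (0.0%), with 300 (3.34%) at an unadjusted p under 0.05.

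The rest of the matrix system was read from 7 lists of TIMPs, CCN proteins, metalloproteinases, other proteases and inhibitors, matrix proteins, binding partners and YAP, TEAD and serum response genes. Of 167 listed genes 54 had a named probe and 33 were tested. Leaving out TIMP1, TIMP3 and CCN2, 22 of 30 had a losartan estimate below 0 (median -0.26) and 22 of 30 an angiotensin II estimate above 0 (median 0.17). Over all 8970 tested probes the medians were 0.01 and -0.03, with 4342 estimates below 0 for losartan and 4072 above 0 for angiotensin II. The angiotensin II count leaned on sets 7 and 8. Without them the mean ratio was below 0 for 8 of 10 matrix proteins, against 2 of 10 over all sets. It was then also below 0 for MMP2, 3 of 10 binding partners, 1 of 3 proteases and 2 of 6 YAP, TEAD and serum response genes. Of the 30, 2 were called lower with losartan, MYL9 and JUND, where 0.992% of all tested probes were called lower. With angiotensin II 0 of the 30 were called, as for all tested probes (0.0%, with 10.5% at an unadjusted p under 0.05 in limma). In the angiotensin II effect minus the losartan effect 3 of the 30 were called higher, MYL9, JUND and CTSB, against 1.3% of all tested probes. The lists were written with earlier results of these arrays known. The counts in them beside the shares of all tested probes are therefore a description, and enrichment was not tested. The JUND call in this difference (0.92, limma adjusted p = 0.0289) was lost in 12 of 18 alternatives, among them leaving out any 1 of sets 1 to 4 and 6 to 8 (adjusted p 0.0556 to 0.0863, and up to 0.33 over the alternatives).

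Of the other TIMP and CCN genes, TIMP2, the inhibitor that also takes part in activating MMP2, had a probe well above background on 7 of 16 arrays and was not tested. CCN1, a matricellular protein induced by serum and strain like CCN2, was lower in 4 of 4 losartan sets with an estimate of -0.51 (SE 0.18), which did not pass (limma adjusted p = 0.287). With angiotensin II its estimate was -0.01 (SE 0.18) with 2 of 4 sets higher, where the ratios were 0.55, 0.38, -0.55 and -0.42 in sets 5 to 8 and averaged 0.46 without sets 7 and 8.

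Of the metalloproteinases that TIMPs inhibit, MMP2, the gelatinase of fibroblasts, was the one tested gene, with estimates of -0.07 (SE 0.16) for losartan and 0.18 (SE 0.16) for angiotensin II. Neither passed the limma test (adjusted p = 0.884 and 0.623). MMP1, MMP7 and MMP9 were well above background on no array, MMP13 on 1, and the 4 probes of MMP14, the membrane-bound activator of MMP2, on 0 to 2. For these enzymes no level in the ventricle could be compared.

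Among the 10 tested matrix proteins all 10 losartan estimates were below 0 (median -0.30) and 8 of 10 angiotensin II estimates were above 0 (median 0.30), and none was called in either treatment. Without sets 2, 7 and 8 the medians were -0.18 with losartan and -0.06 with angiotensin II, so the positive median with angiotensin II did not hold. COL12A1, a collagen that lies along fibrils and is known to respond to tension, had ratios of -0.43, -1.53, -1.67 and -0.69 with losartan and 1.44, 0.19, 0.33 and 0.18 with angiotensin II. Its sign was that of CCN2 in all 8 sets, and its estimates of -1.08 (SE 0.25) and 0.53 (SE 0.25) missed the threshold (limma adjusted p = 0.0913 and 0.482). COL1A2, a chain of fibrillar type I collagen, had estimates of -0.54 and 0.54, COL4A1, of the basement membrane, -0.67 and 0.78, and DCN, the small proteoglycan decorin, -0.25 and -0.07 for losartan and angiotensin II. Without sets 2, 7 and 8 the means were -0.25 and -0.03 for COL1A2, -0.29 and -0.20 for COL4A1, and -0.14 and -0.22 for DCN, so the angiotensin II values of both collagens lost their positive sign.

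The binding partners showed no common direction, with 7 of 10 above 0 with losartan (median 0.06) and 6 of 10 above 0 with angiotensin II (median 0.01), and none was called. TGFB2, a growth factor whose family CCN2 binds, had estimates of -1.13 (SE 0.36) and 0.76 (SE 0.36), neither past the threshold (limma adjusted p = 0.222 and 0.481). Its largest ratios, -2.33 in set 2 and 1.64 and 1.10 in sets 7 and 8, fell among the sets with arrays that stood apart, apart from -1.60 in set 3. ITGAV, the alpha v integrin subunit through which CCN2 is known to attach cells, was 0.03 with losartan and 0.26 with angiotensin II. KDR, the vascular endothelial growth factor receptor that TIMP3 is known to block, was -0.34 and 0.11. AGTR2, the type 2 angiotensin II receptor, was -0.49 with angiotensin II, with 0 of 4 sets higher and limma adjusted p = 0.467.

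All 3 tested proteases of the matrix, CTSB, CTSD and CTSS, had losartan estimates below 0 and angiotensin II estimates above 0, though with angiotensin II the sets agreed in sign for CTSB alone. CTSB, a lysosomal cysteine protease that can degrade matrix proteins, had ratios of -0.16, -0.53, -0.59 and -0.22 with losartan and 0.20, 0.53, 0.85 and 0.64 with angiotensin II. The angiotensin II effect minus the losartan effect was 0.93 and passed (limma adjusted p = 0.0384), while neither treatment alone did (adjusted p = 0.255 and 0.45). That call was lost when any 1 of the sets 1, 2, 3, 4, 6, 7 and 8 was left out (limma adjusted p 0.065 to 0.117). Over 19 alternatives the result for this difference changed in 11, with values from 0.69 to 1.56. CTSD had estimates of -0.08 and 0.22, and CTSS -0.14 and 0.17. Without sets 7 and 8 the angiotensin II means were -0.09 for CTSD and 0.67 for CTSS.

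Among the genes that share known regulators with CCN2, MYL9, the smooth muscle regulatory light chain and a serum response factor target, fell with losartan (estimate -1.06, SE 0.14, limma adjusted p = 0.00855, lower in 4 of 4 sets). The call was lost without set 3 or set 4 (limma adjusted p = 0.0609 and 0.0517). Over 19 alternatives this losartan result changed in 5, and the estimate ran from -1.33 to -0.67. With angiotensin II MYL9 was 0.93 (SE 0.14), higher in 4 of 4 sets, and did not pass (limma adjusted p = 0.427). JUND, a subunit of the transcription factor AP-1, fell with losartan (estimate -0.62, SE 0.12, limma adjusted p = 0.0358), with ratios between -0.75 and -0.56, but its call was lost without any 1 of sets 1 to 4, 7 and 8 (adjusted p 0.0525 to 0.193). With normexp background correction the JUND estimate was -0.38 (limma adjusted p = 0.199), and the call was also lost with no filter on dim probes (0.0683), with slide as a further block (0.0585) and without sets 2, 7 and 8 (0.107). FOS, another AP-1 subunit, was -0.82 (SE 0.22, adjusted p = 0.158) and 0.57 (SE 0.22), and EGR1, an immediate early gene, was 0.23 and -0.26, opposite in sign to CCN2 in both treatments.

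**Figure D4:**
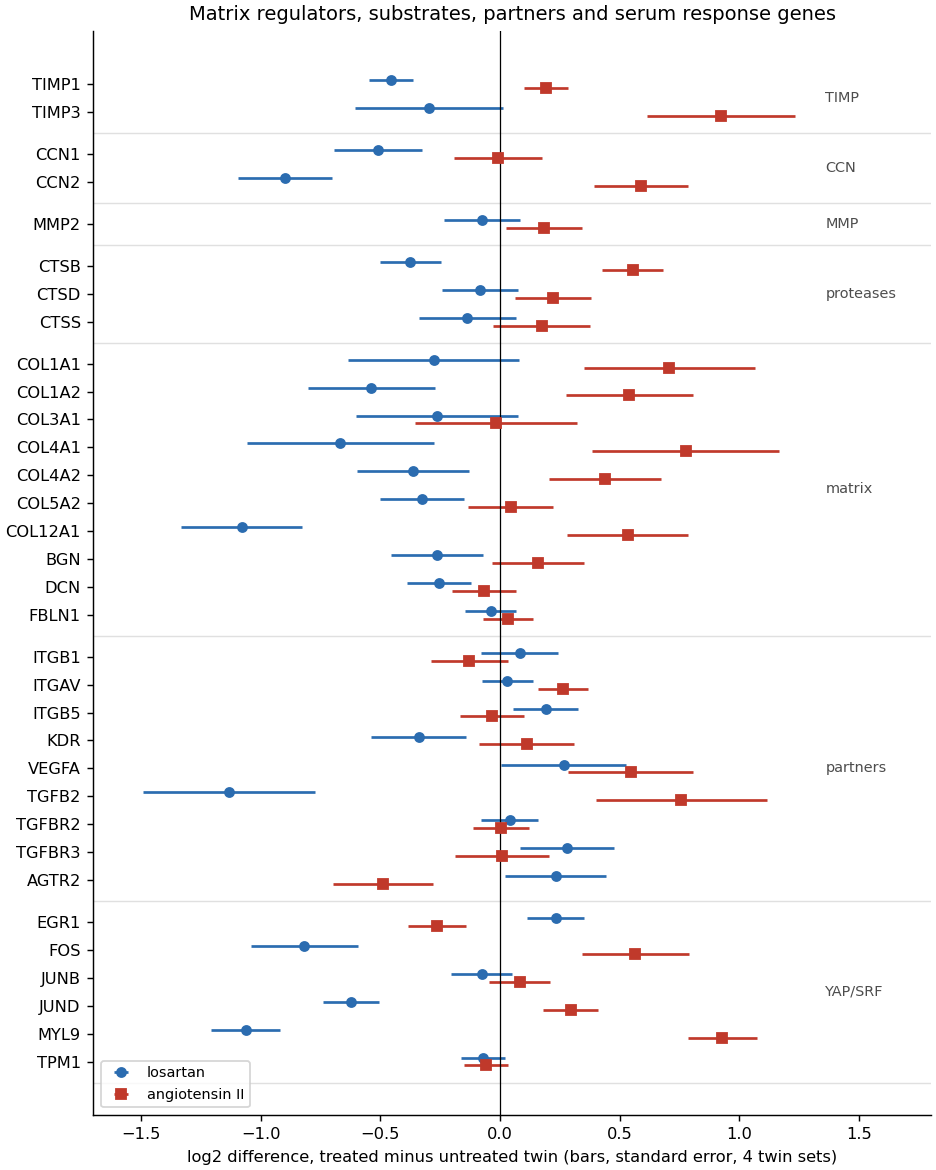
Fitted log2 difference of treated fetuses minus untreated twins for the 33 tested genes of the 7 lists, with circles for losartan, squares for angiotensin II and bars for the standard error over 4 twin sets. Among the 10 matrix genes every losartan estimate lies below 0, COL12A1 lowest at -1.08. MYL9 and JUND are the 2 of all 33 genes that were called lower with losartan.

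Of the summed markers of other cell types, those of smooth muscle separated treated from untreated fetuses in both arms and those of neutrophils with losartan. The summed linear level of the 3 tested smooth muscle markers of 11 (CNN1, MYL9 and MYLK) was 13.4 to 20.3 in losartan fetuses, against 30.1 to 43.6 in their untreated twins. It was 52.2 to 76.1 in angiotensin II fetuses, against 29.3 to 43.4 in theirs, with no overlap in either arm. Among single tested probes, groups did not overlap for 4.09% with losartan lower and for 1.65% with angiotensin II higher. CNN1 and MYL9 carried the separation of the smooth muscle sums, and MYLK had ratios from -1.94 to 1.75 with losartan. With angiotensin II MYLK was lower in 3 of 4 sets, with ratios of -0.90, -0.10, -0.26 and 0.48 in sets 5 to 8. The summed fibroblast markers (4 of 9 tested, all of them matrix genes of the list above) were 31.0 to 33.9 in losartan fetuses, against 31.9 to 49.6 in their untreated twins, and 29.0 to 42.1 in angiotensin II fetuses, against 31.7 to 37.1 in theirs. The log2 ratios of this sum in sets 1 to 4 (-0.26, -0.60, -0.26 and 0.09) were close to those of DCN (-0.26, -0.59, -0.27 and 0.10), while COL1A1, COL1A2 and COL3A1 had ratios of 0.94, 1.17 and 0.55 in set 8, where the ratio of the sums was -0.07. The summed neutrophil markers (2 of 11 tested, CATHL3 and BAC5) were 1.22 to 6.79 in losartan fetuses, against 0.35 to 1.00 in their untreated twins. The share of all tested probes with groups apart and losartan higher was not counted. In angiotensin II fetuses the neutrophil sum was 0.41 to 2.44, against 0.26 to 1.21 in theirs. The cardiomyocyte markers MB and TPM1 summed to 130.7 to 151.5 in losartan fetuses, against 131.3 to 155.5 in their untreated twins, and 123.6 to 136.8 in angiotensin II fetuses, against 129.6 to 155.0 in theirs. The sums for endothelial (2 of 11 tested), macrophage and leukocyte (4 of 14), erythroid (1 of 8), epicardial (1 of 4) and adipocyte markers (2 of 4) overlapped between treated and untreated fetuses in both arms. The part of any of these cells in the TIMP1, TIMP3 and CCN2 values was not tested.

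The genes most like each of the 3 were taken by Pearson r of levels over the 16 arrays among 454 other named and tested genes. This is a description, since arrays share mothers, slides and treatments. For CCN2 they were COL12A1 (0.88), IL18 (0.86), IGFBP2 (0.80), FHL1 (0.79) and PCNA (0.76), and over the 10 arrays without sets 2, 7 and 8 these were 0.86, 0.88, 0.78, 0.79 and 0.73. For TIMP1 they were INHBA (0.83), SNAI2 (0.76), CCND2 (0.76), CCNA2 (0.72) and CDK1 (0.72), with 0.82, 0.70, 0.88, 0.65 and 0.65 over the 10 arrays.

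For TIMP3 the likeness depended on the 3 arrays that stood apart. Its nearest genes were IGFBP6 (0.93), ACVR2B (0.91), PRKAA2 (0.90), CXCL1 (0.90) and RPL34 (0.90), and over the 10 arrays the same genes had 0.31, 0.34, 0.15, -0.01 and -0.18. Between the 3 genes themselves, TIMP1 and CCN2 had r = 0.71 over 16 arrays and 0.64 over 10, TIMP3 and CCN2 0.33 and 0.16, and TIMP1 and TIMP3 0.25 and -0.05.

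The treatment estimates of these nearest genes are a description with no test, because likeness over the same 16 arrays to genes listed for their losartan ratios favours genes with losartan ratios of the same sign. INHBA, the activin beta A subunit, was -1.23 with losartan and 0.50 with angiotensin II. The cell cycle genes CDK1 and CCNA2 were -2.07 and -1.88 with losartan and 0.75 and 0.78 with angiotensin II, and PCNA, which holds DNA polymerase on its template, was -0.73 and 0.37. SNAI2, a transcription factor of mesenchymal cells, was -0.55 and 0.19, and IGFBP2, which binds insulin-like growth factors, was -0.82 and 0.40. CCND2, FHL1, IL18 and COL12A1 had losartan estimates of -1.20, -0.36, -0.63 and -1.08. All 10 of these genes, the nearest to TIMP1 and CCN2, were lower in 4 of 4 losartan sets, against 11.1% of all tested probes. The choice by likeness favours this. Of the genes nearest to TIMP3, ACVR2B was lower in 4 of 4 losartan sets and IGFBP6 in 3. PRKAA2, CXCL1 and RPL34 were each lower in 2.

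**Figure D5:**
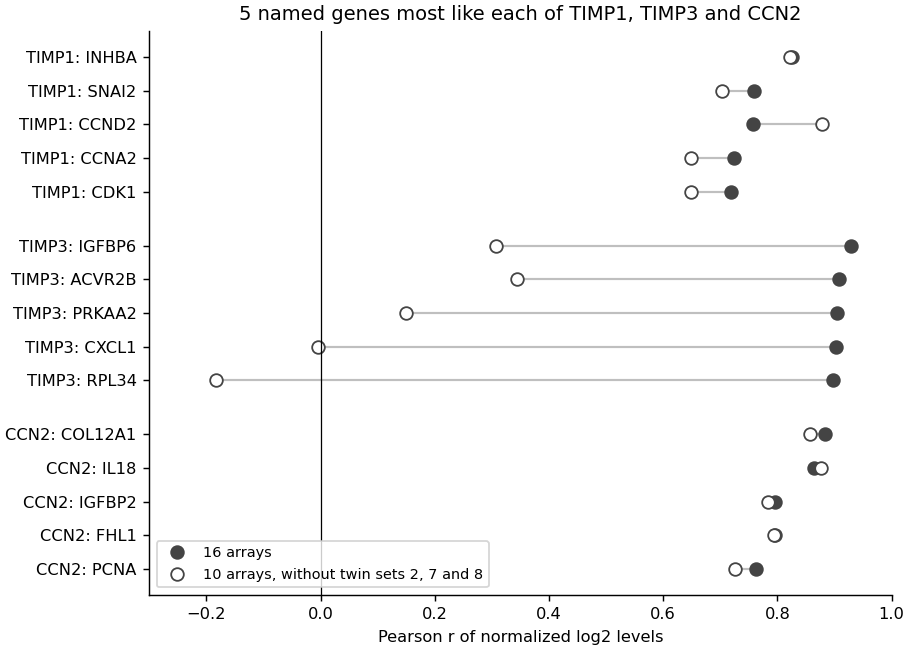
Pearson r of normalized log2 levels between each of TIMP1, TIMP3 and CCN2 and its 5 most like named genes, with filled points over 16 arrays and open points over the 10 arrays of the other twin sets. The pairs of points lie close for TIMP1 and CCN2 and far apart for TIMP3, where RPL34 has 0.90 over 16 arrays and -0.18 over 10.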

How the data were processed

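The deposited scanner files give spot intensity values from Agilent Feature Extraction 10.7.3.1, already corrected for background and spatial trend but not normalized across arrays, per the file headers. A second, deposited table, near natural log spot signal in scale, was used as an alternative alone; its method is not given in the sources. Control spots and outlier spots were dropped, and repeated spots averaged. Values were log2 processed intensity minus the 75th percentile of the array. Of 15008 probes, 1397 were named (863 genes) through RefSeq (ARS-UI_Ramb_v3.0) by accession (727), symbol (498), gene identifier (125) or synonym (20), or from the description in the files (27). Some of these last names, among them COL12A1 and MYL9, were read by hand from descriptions that give the best protein match of a sequence cluster, so they are less certain. A gene was represented by its tested probe with the highest mean level.

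All 16 arrays were fitted in limma 3.58.1 (R 4.3.3) with the 8 twin sets as a fixed block and 1 term per treatment, two-sided. The twin sets stated in the labels give the pairing, and deviations from group means correlated at -0.04 to 0.53 within them. The untreated arms were compared over 8 arrays with no block. The members, lists and tests were chosen with earlier results of these data known. Genes named were the members, all probe-bearing TIMP, CCN and metalloproteinase genes, up to 3 genes per other list by smallest unadjusted p in each treatment, and the 5 most like genes per member. EGR1 and the smooth muscle genes were added after their values were seen. Tables and figures were made with Python 3.11.15, pandas 2.3.3, scipy 1.17.1 and matplotlib 3.10.9. Alternatives are given in the closing section.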

Additional observations from a re-analysis of the deposited data

Results flagged for a closer look

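For both probes of TIMP1 and both probes of CCN2 every losartan twin set moved down and every angiotensin II twin set moved up. The angiotensin II effect minus the losartan effect was 0.65 for TIMP1 and 0.64 for its second probe, and 1.49 for CCN2 and 1.39 for its second probe, on the log2 scale. These differences are given as a description with no test, because contrasts that enter them had put the genes on the list. For TIMP1 that was losartan, and for CCN2 it was losartan and angiotensin II. The TIMP3 level of the untreated twin of set 2, -1.67, lay far from the other 3 untreated twins of the losartan arm (-3.45 to -3.33). It is one of the 3 arrays that stood apart. Among 20 groups of 4 levels screened in this way, chance alone would mark about 1 in 20.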

How the results depend on the processing

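CCN2 kept its sign in all 20 alternatives per treatment (-1.37 to -0.73 with losartan, 0.45 to 0.89 with angiotensin II), as did TIMP1 (-0.52 to -0.31 and 0.13 to 0.22) and, over 18 alternatives, TIMP3 with angiotensin II (0.34 to 1.51). Part of this was fixed beforehand. Another probe filter, no twin block or leaving out a set of the other arm leaves an estimate as it was. Leaving out sets of the same arm cannot change a sign that all its sets share. TIMP1 with losartan was -0.31 within slide 1. TIMP3 with losartan reversed to 0.15 within slide 1 and to 0.11 without sets 2, 7 and 8, ran from -0.54 to 0.11 with 1 twin set left out at a time, and was -1.58 within slide 2 (limma adjusted p = 0.0157, range over alternatives 0.0157 to 0.973). Within slide 2 the untreated twin of set 2 is the sole control for losartan, and within slide 1 there is 1 losartan fetus, so the losartan and difference counts within slides assume that the lone array varies like the other groups. TIMP1 with angiotensin II passed in no alternative (adjusted p 0.225 to 0.998). The untreated comparison kept its sign for all 3 genes.

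The counts of called probes moved more. With losartan, 109 became 434 in the authors' deposited values, 58 among probes well above background on all 16 arrays, 71 with slide as a further block, 42 and 546 within slide 1 and slide 2, and 33 to 99 with 1 twin set left out. With angiotensin II, 0 became 353 within slide 2 and 1 without sets 2, 7 and 8, and stayed 0 to 0 with 1 set left out. For the difference of the effects, 148 became 1734 in the deposited values, 427 with slide as a block, 38 and 1880 within slides 1 and 2, 75 without sets 2, 7 and 8, and 48 to 109 with 1 set left out. The untreated comparison gave 1 without sets 2, 7 and 8 and 0 to 1 with 1 array left out. Without the replicate block (no twin set term) the losartan count was 0 and that of the difference 3. Without this block MYL9 and JUND no longer passed with losartan (adjusted p = 0.0837 and 0.43), nor JUND and CTSB in the difference (0.226 and 0.205). The causes of these changes were not tested.

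TIMP3 is limited by signal, since 4 of its 16 values were not well above background, and 4 fetuses per group limit the precision throughout.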
